A study of Mus musculus with 50 samples.

Results

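Sfrp4, Elmo1 and Aoah are 3 genes that follow each other on mouse chromosome 13 among the genes measured, and all 3 were called as fallen in embryonic stem cells 48 h after withdrawal of the drug that sustained their Cdk12. They are 3 of the 12819 genes in a table of expression changes deposited by the study's authors, and were chosen by name from the log2 changes and calls in that same table, so their falls are described here and not tested. The cells were V6.5 mouse embryonic stem cells (C57Bl/6-129) of genotype Cdk12 -/-:Cdk12 Tg+, which lack their own Cdk12 and live on a tagged Cdk12 transgene switched on by doxycycline (Dox). PolyA-selected RNA came from 2 independently derived clones, numbers 28 and 36, each with 2 biological replicates at every time, which makes 4 libraries per time and 12 in all. The 0 h cells were kept in 1 µg/mL Dox, and the others had been without Dox for 24 or 48 h. A further 6 libraries came from parental cells of genotype Cdk12 Fl/Fl; Cdk12 Tg-, clone 21, pretreated with Dox for 17 days and sampled at the same times. The authors' deposited table has no value for any single library and none for the parental cells, so no level, SD or spread between clones can be set beside a gene, and sequencing depth is unknown. Changes are given as log2 of the later time over 0 h. The headers do not state the direction, which was read from the order of times in their names and from Cdk12, which the authors' deposited table puts at -0.61 at both times, not called, so this table does not itself show its loss. Were the direction the opposite, every fall named here would be a rise.

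Cdk12 is a kinase that works with cyclin K and phosphorylates the C-terminal tail of RNA polymerase II, a step tied to productive elongation along genes and to where transcripts end. The 3 neighbours have unrelated products. Sfrp4 encodes secreted frizzled-related protein 4, which carries a cysteine-rich domain like that of Frizzled receptors and binds Wnt ligands outside the cell. Elmo1 encodes a scaffold protein that joins Dock proteins to activate the small GTPase Rac during cell migration and the engulfment of dying cells. Aoah encodes acyloxyacyl hydrolase, a lipase known from phagocytes that removes fatty acids from bacterial lipopolysaccharide.

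Aoah was called at both times and had the largest change of the 3. Its log2 change in the authors' deposited table was -1.44 at 24 h and -2.19 at 48 h, which leaves 36.8% and 21.9% of the 0 h level. A gene was called where the deposited posterior probability of differential expression was at least 0.95. In the authors' deposited table that probability rounds to 1 for Aoah at 24 and at 48 h. A second deposited statistic, an adjusted p-value whose test and groups are not stated, was 0.000207 at 24 h and 3.73e-11 at 48 h for Aoah, so the authors' deposited table puts it past 0.05 at both times. Counted from the steepest, Aoah ranked 18 among the 86 called falls at 24 h and 14 among the 493 at 48 h.

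Sfrp4 was called at 48 h and not at 24 h. At 24 h the authors' deposited table gave it a log2 change of -0.48, or 71.9% of the 0 h level, with a posterior probability of 0.0192 and an adjusted p of 1 by the second statistic, so it was not called. By 48 h Sfrp4 had fallen by 1.44 log2 units, which left 37.0% of the 0 h level, with a posterior probability of 0.991 and an adjusted p of 0.0235 in the authors' deposited table. It ranked 68 among the 493 called falls at 48 h. The deposited change of Sfrp4 grew by 0.96 on the log2 scale between the later times, against 0.75 for Aoah. No deposited statistic compares 48 h with 24 h, so that step was not tested.

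Elmo1 made the smallest change of the 3. In the authors' deposited table it stood at -0.35 at 24 h, which is 78.6% of the 0 h level, with a posterior probability of 0.129, and it was not called. At 48 h Elmo1 was called, with a log2 change of -0.57, 67.6% of the 0 h level and a posterior probability of 0.99998 in the authors' deposited table. The second statistic did not pass, with an adjusted p of 0.258 for Elmo1 at 48 h in the authors' deposited table. The size of this fall, 1.48-fold, is also under 1.5-fold. Elmo1 ranked 459 among the 493 called falls at 48 h, near the shallow end. Of the 53 called falls at 48 h that were under 1.5-fold, 0 passed the second statistic in the authors' deposited table at an adjusted p of 0.05. Another 656 genes with a posterior probability had a 48 h change within 0.1 of that of Elmo1 on the log2 scale. Of these 126 were called, while 0 of the 680 such genes with a value of the second statistic passed it. The smallest called change at 48 h was 0.52 in size, so part of that window held no call by posterior probability.

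Over all genes the table called 1.13% at 24 h and 7.69% at 48 h by posterior probability, in either direction. Falls alone made up 0.679% at 24 h and 3.97% at 48 h by posterior probability, and 0.151% and 1.99% by the second statistic. Of the 3 genes, 1 was called as fallen at 24 h and 3 at 48 h by posterior probability, and 1 and 2 by the second statistic, counts that nothing can be read from because the genes were chosen on these calls. The median change over all genes was 0.01 on the log2 scale at both times. Of the genes on either side of the call threshold among falls at 48 h, Prkcc lay just inside at a posterior probability of 0.951 and Rell2 just outside at 0.94996 in the authors' deposited table. The authors also mark some rows as a Dox effect, 3 at 24 h and 149 at 48 h, without saying how. None of Sfrp4, Elmo1 and Aoah carries the mark at either time. Removal of Dox and loss of Cdk12 came together in these cells, so they cannot be told apart here. The lack of a mark does not separate them, because its rule is not given. RNA was taken from whole cultures, so fewer cells expressing a gene and less of its RNA per cell cannot be told apart.

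**Figure D1:**
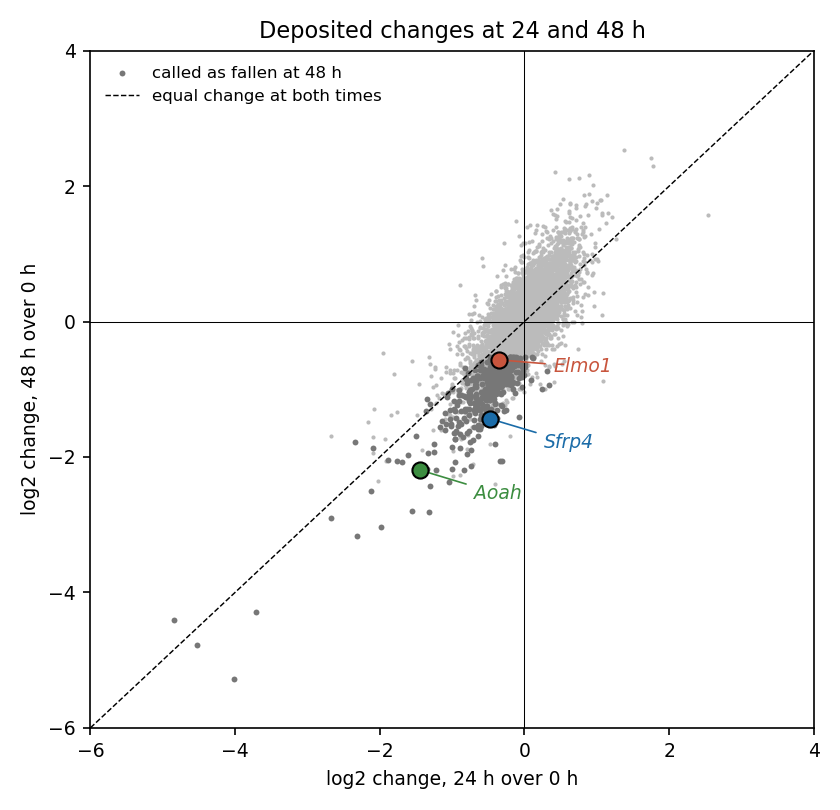
Each point is 1 gene of the authors' deposited table, with its log2 change at 24 h over 0 h on the horizontal axis and at 48 h over 0 h on the vertical axis; dark points were called as fallen at 48 h, the dashed line marks equal change, and 2 genes lie outside the axes. Aoah (-1.44, -2.19) lies toward the steep end of the called falls, Sfrp4 (-0.48, -1.44) lies well below the dashed line, and Elmo1 (-0.35, -0.57) sits at the shallow edge of the called genes.

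**Figure D2:**
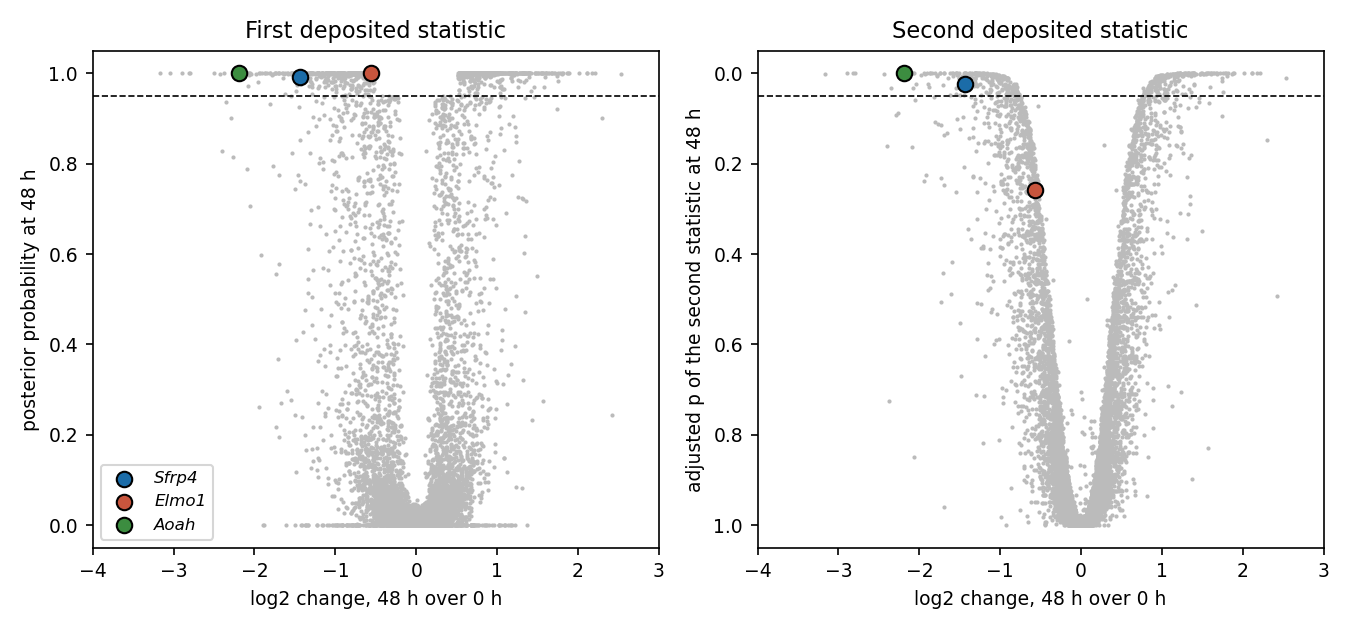
Each point is 1 gene, with the log2 change at 48 h on the horizontal axis and, on the vertical axis, the deposited posterior probability (left) or the adjusted p of the second deposited statistic (right, plotted with 0 at the top); dashed lines mark 0.95 and 0.05, and 4 genes lie outside the axes. All 3 genes are past the line on the left, while on the right Elmo1, at an adjusted p of 0.258, is on the other side of the line from Sfrp4 and Aoah.

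The annotation of Elmo1 and Aoah was examined for features that the choice of genes did not use. The start sequences available here had no entry for Sfrp4, so its start region was not compared. Sequences are from RefSeq, build GRCm38.p6, and show the 250 bases before each annotated start of Elmo1 and Aoah. Elmo1 has 2 annotated starts, 382 kb apart, and its row in the table does not separate transcripts from them. Capitals mark the motifs searched on both strands, the TATA box TATAAA, the CCAAT box CCAAT and the GC box GGGCGG, which do not overlap each other here.
Elmo1, first start, chr13:20090257-20090506, plus strand: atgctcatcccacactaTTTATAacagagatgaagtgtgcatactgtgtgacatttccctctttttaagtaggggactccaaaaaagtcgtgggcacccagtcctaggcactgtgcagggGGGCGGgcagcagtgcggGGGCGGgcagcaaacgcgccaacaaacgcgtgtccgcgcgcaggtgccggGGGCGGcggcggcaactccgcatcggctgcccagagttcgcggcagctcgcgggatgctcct
Elmo1, second start, chr13:20472740-20472989, plus strand: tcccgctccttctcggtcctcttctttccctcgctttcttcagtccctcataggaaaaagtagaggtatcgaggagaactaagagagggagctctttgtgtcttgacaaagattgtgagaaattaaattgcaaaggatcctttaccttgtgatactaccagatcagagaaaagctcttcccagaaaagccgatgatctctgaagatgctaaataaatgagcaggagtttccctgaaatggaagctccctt
Aoah, chr13:20793863-20794112, plus strand: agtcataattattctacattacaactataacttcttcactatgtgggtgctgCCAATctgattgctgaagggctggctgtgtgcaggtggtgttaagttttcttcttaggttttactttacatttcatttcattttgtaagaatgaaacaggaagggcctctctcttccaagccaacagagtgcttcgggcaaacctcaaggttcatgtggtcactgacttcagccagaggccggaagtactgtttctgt

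The first Elmo1 window differed in base composition from the other two. The first Elmo1 window is 61.6% G and C with 21 CpG pairs, and holds GGGCGG 3 times and 1 TATAAA, read on the opposite strand, which lies far from the start. The second Elmo1 window is 43.6% G and C with 5 CpG pairs and held none of the 3 motifs. The Aoah window is 42.8% G and C with 2 CpG pairs and holds 1 CCAAT. Over all 32851 windows of this length the median was 52.4% G and C with 6 CpG pairs. GGGCGG occurred in 32.7% of them, CCAAT in 33.8% and TATAAA in 12.4%, so no motif is shared by the Elmo1 and Aoah windows and each is common elsewhere. These are letter matches and not binding sites.

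Gene length differed as well. In the GRCm38.p6 annotation Elmo1 spans 518 kb from first to last base, longer than 99.5% of matched genes of the table, and Aoah spans 243 kb, longer than 97.2%. Sfrp4 spans 9.65 kb, longer than 24.6%. Of the other 347 genes at least as long as Aoah with a posterior probability at 48 h, 16 were called as fallen and 18 as risen, so 4.61% fell, and their median change was -0.04 on the log2 scale. With genes split by length into 4 groups of like number, the share called as fallen at 48 h was 5.54% in the shortest group, which holds Sfrp4, then 3.52%, 3.03% and, in the longest, 3.84%, beside 3.97% of all genes. A long non-coding RNA gene on the opposite strand overlaps the span of each of the long genes, Gm32036 for Elmo1 and Gm32242 for Aoah. Overlap of exons was not examined. The sources used here do not say whether counting used strand, so it is not known whether any shared reads were told apart.

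The genes on either side were not called. The run was flanked by 5 measured genes on each side, taken in annotation order. None of the 10 was called at 24 or 48 h, beside the 1.13% and 7.69% called over all genes, and 0 passed the second statistic. A run of genes called in 1 direction ends at the first gene not so called. Epdr1 and Trim27, directly beside the run, could therefore not be called as fallen at 48 h. With so few genes, nothing is read from the lack of calls among the others. Their posterior probabilities reached at most 0.0435 at 24 h and 0.299 at 48 h. Directly before Sfrp4, Epdr1, an ependymin-related gene, had log2 changes of -0.28 at 24 h and -0.17 at 48 h by the authors' deposited table. Stard3nl, whose product tethers endosomes to the endoplasmic reticulum, had -0.18 and then 0.04 by the authors' deposited table.

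Farther out, Amph, the endocytic protein amphiphysin, had the lowest 48 h change of any neighbour, at -0.41 and then -0.73 in the authors' deposited table. Its posterior probability at 48 h was 0.299 and its adjusted p 0.299 by the second statistic. For Vps41, a subunit of a lysosomal tethering complex, the authors' deposited table has -0.13 and -0.17, and for 1600012F09Rik it has -0.16 and -0.36. On the other side, directly after Aoah, the authors' deposited table has the ubiquitin ligase gene Trim27 at 0.12 and -0.03. By the authors' deposited table, the zinc finger genes had -0.13 and -0.07 (Zscan12) and -0.42 and -0.31 (Zkscan3). The authors' deposited table puts Pgbd1, which derives from a transposase, at -0.08 and -0.39, and Zfp187 at 0.17 and 0.45. Of the 10 neighbours 8 were below 0 at each time, with medians of -0.14 and -0.17.

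With 10 measured neighbours on each side none of 20 was called at either time, beside 1.13% and 7.69% of all genes. Of the 20, 14 were below 0 at 24 h and 13 at 48 h. That wider set holds Cdk13, the kinase most related to Cdk12, 7 measured genes before Sfrp4, which was not called, with -0.10 and -0.19 by the authors' deposited table. Sfrp4 and Elmo1 are neighbours among measured genes and not in the genome. The annotation places 3 protein-coding genes, Nme8, Gpr141b and Gpr141, between Sfrp4 and Elmo1, across a gap of 458 kb, and these were not analysed here. No protein-coding gene is annotated in the 186 kb between Elmo1 and Aoah.

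**Figure D3:**
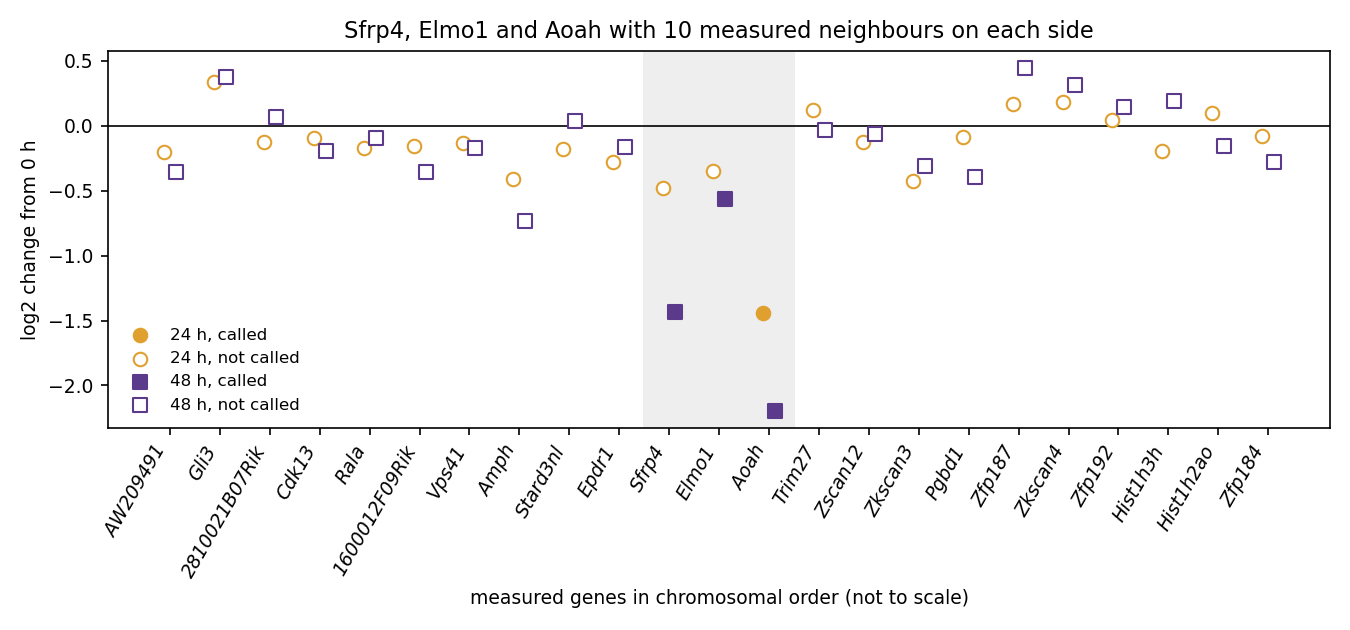
Log2 change from 0 h (vertical axis) of Sfrp4, Elmo1 and Aoah (shaded) and of 10 measured genes on each side, in chromosomal order and not to scale; circles are 24 h, squares 48 h, and filled symbols were called at a posterior probability of at least 0.95. Filled symbols occur only for Sfrp4 (-1.44 at 48 h), Elmo1 (-0.57 at 48 h) and Aoah (-1.44 and -2.19), and the lowest open symbol at 48 h is Amph at -0.73.

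The run was 1 of 8 stretches at 48 h in which 3 consecutive measured genes were called in the same direction, of which 4 fell and 4 rose. Its median change was -1.44 on the log2 scale. Among the other falling stretches, Th, Ascl2 and Tspan32 had a median of -1.87, Rsph1, Slc37a1 and Pde9a of -1.36, and Map4k1, Ryr1 and Rasgrp4 of -1.11 on the log2 scale. The smallest change within the run, that of Elmo1 at 0.57 in size, was smaller than the smallest in each of these 3, at 1.78, 1.16 and 0.66. By the second statistic 2 of the 3 genes of the run passed at 48 h, against 3, 3 and 2 in those stretches. The authors' Dox mark is carried by 0, 1 and 3 genes of those stretches at 48 h, and by 0 of the run. At 24 h, Th, Ascl2 and Tspan32 made the single such stretch, and Sfrp4 and Elmo1 were not yet called.

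Relatives of Sfrp4 were listed as Wnt antagonists. Of 18 Wnt antagonists 11 had a row. By posterior probability 1 was called as fallen at 24 h and 2 at 48 h, and 0 as risen. Without Sfrp4, which was chosen for its fall, 1 of 10 was called as fallen at each time, beside 0.679% and 3.97% of all genes, and the median log2 change was 0.02 at 24 h and 0.23 at 48 h, beside 0.01 over all genes. Notum, a secreted enzyme that removes the lipid of Wnt ligands, was the other called member, and fell by 0.69 at 24 h and by 0.94 at 48 h in the authors' deposited table. Its adjusted p by the second statistic in the authors' deposited table was 0.665 at 24 h and 0.00815 at 48 h. The paralogs Sfrp1, Sfrp2 and Sfrp5 had 48 h changes of -0.66, 0.34 and -0.29 by the authors' deposited table, none called. The 14 measured Frizzled receptors and co-receptors had a median of 0.03 at 48 h. Of these 1 was called as fallen and 0 as risen, beside 3.97% of all genes called as fallen. The fallen one was the receptor gene Fzd7, down by 0.81 at 48 h in the authors' deposited table. Its adjusted p was 0.0234 by the second statistic.

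Among relatives of Elmo1 only Dock3 was called, and only at 48 h. Of 17 Elmo and Dock genes 15 had a row, 0 were called at 24 h, and 2 were called as fallen and 0 as risen at 48 h. Without Elmo1, 1 of 13 with a posterior probability was called as fallen at 48 h, beside 3.97% of all genes. The median of the other 14 log2 changes was -0.06 at 24 h, then -0.33 at 48 h, beside 0.01 over all genes, and 10 of the 14 were below 0 at each time. Dock3, a Rac exchange factor best known from neurons, stood at 0.24 at 24 h and fell by 0.99 at 48 h in the authors' deposited table, with an adjusted p of 0.0197 by the second statistic. The paralogs Elmo2 and Elmo3 had 48 h changes of 0.15 and -0.52 by the authors' deposited table, and neither was called. Dock1, the exchange factor that Elmo1 is best known to bind, stood at -0.26 at 48 h in the authors' deposited table and was not called. Other engulfment and Rac genes numbered 21, of which 16 had a row, with a median of 0.06 at 48 h. Of these 0 were called as fallen and 1 as risen, beside 3.97% of all genes called as fallen and 7.69% in either direction. The risen gene was Lrp1, an endocytic receptor, which rose by 0.96 in the authors' deposited table, while Rac1 stood at -0.04.

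For Aoah the related list was that of lipopolysaccharide handling and sensing. Of its 18 genes 12 had a row. Without Aoah the other 11 had median log2 changes of -0.07 at 24 h, then -0.14 at 48 h. Aoah was the only member called at 24 h and the only one called as fallen at 48 h. Of the other 11, 0 were called as fallen at either time, beside 0.679% and 3.97% of all genes. In either direction 7.69% of all genes were called at 48 h. Myd88, the adaptor of Toll-like receptors, was called as risen at 48 h, by 0.60 in the authors' deposited table, but had an adjusted p of 0.197 by the second statistic. Cd14, a co-receptor for lipopolysaccharide, was not called, and the authors' deposited table puts it at -0.18 and 0.28.

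Aoah and Elmo1 are both known from phagocytes, so markers of myeloid cells were listed too. Of 14 markers 5 had a row, Itgam, Cd68, Cd14, Laptm5 and Coro1a, and the others, among them Ptprc, Csf1r and Spi1, were not analysed here. At 48 h 4 of the 5 had a posterior probability, of which 1 was called as fallen and 0 as risen. Over all genes 3.97% were called as fallen at 48 h and 7.69% in either direction. Of the 5 changes 4 were above 0, with a median of 0.26 on the log2 scale and a range from -1.95 to 0.46. The fallen marker was Itgam, an integrin chain of myeloid cells, at -0.79 at 24 h and, called, at -1.95 at 48 h in the authors' deposited table, with a posterior probability of 0.982 and no value of the second statistic. Whether the fall of Itgam has any link to those of Aoah and Elmo1 was not tested. Fibroblast markers had 6 of 12 rows and a median of 0.10 at 48 h. Beside the 3.97% of all genes called as fallen and 7.69% in either direction, 0 of these 6 were called as fallen and 1 as risen. That marker, the collagen gene Col1a1, rose by 0.89 at 48 h in the authors' deposited table, carries the Dox mark and had an adjusted p of 0.0517 by the second statistic. All 10 pluripotent stem cell markers had a row, with a posterior probability for 9 at 24 h and 10 at 48 h. Of these markers 0 were called at either time, beside 1.13% and 7.69% of all genes. Their median log2 changes were 0.12 and 0.07. The largest changes among them at 48 h were those of Zfp42 at -0.46 and Sox2 at 0.39 in the authors' deposited table. Because the table holds changes and no levels, these markers do not show how strongly each cell type's genes were expressed.

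**Figure D4:**
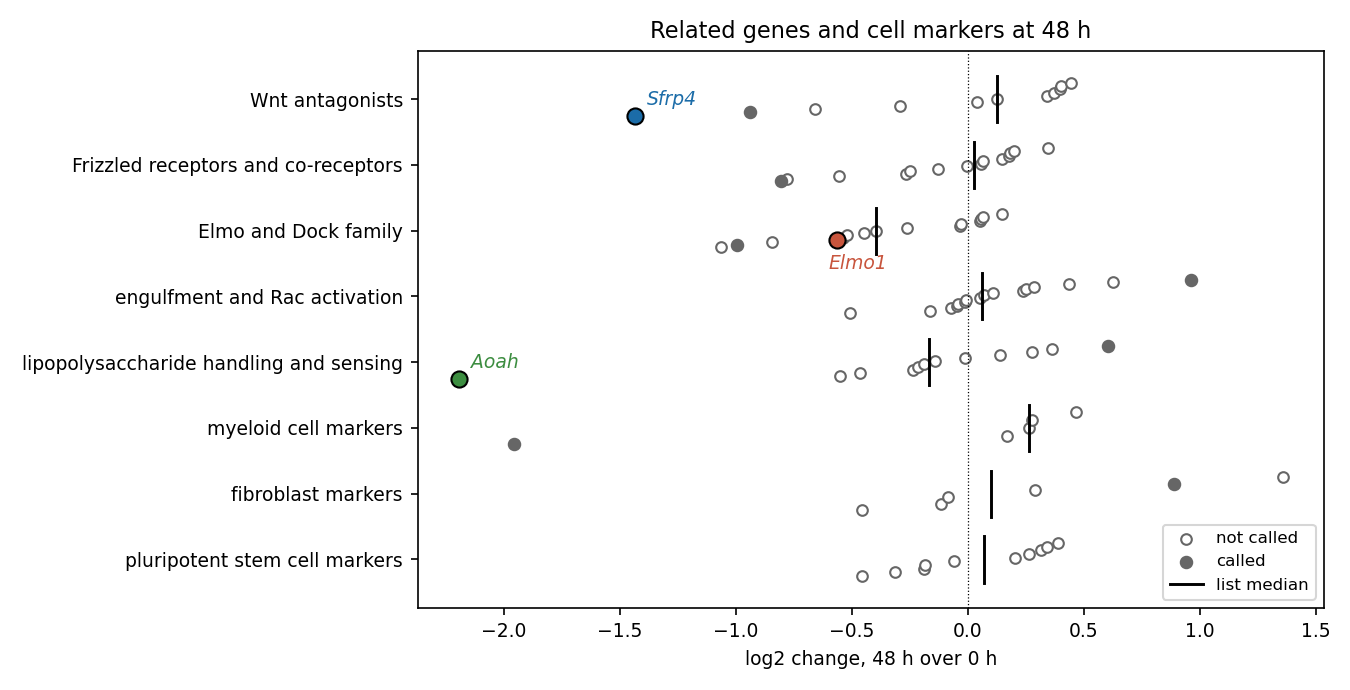
Each circle is 1 gene with a row in the authors' deposited table, placed by its log2 change at 48 h over 0 h (horizontal axis) in 1 of 8 lists (vertical axis); filled circles were called at a posterior probability of at least 0.95, coloured ones are Sfrp4, Elmo1 and Aoah, and black bars are list medians. Sfrp4 (-1.44) and Aoah (-2.19) are the lowest members of their lists, Elmo1 (-0.57) has 3 lower members in its list, 1 of them called, and the filled myeloid marker on the left is Itgam (-1.95).

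Genes with the most similar pair of changes were named by their distance from each member in the plane of the 24 h and 48 h log2 changes, a measure over 2 comparisons that share their 0 h libraries. Closest to Sfrp4 were Vti1a, a vesicle fusion protein gene, at a distance of 0.0068, Pogk at 0.0323 and Serpinb9b at 0.0409. With changes almost equal to that of Sfrp4, the posterior probabilities at 48 h were 0.999999 for Vti1a, 0.239 for Pogk and 0.427 for Serpinb9b in the authors' deposited table. Closest to Elmo1 were C87436, the cytochrome P450 gene Cyp4f16 and Mppe1, at distances of 0.0041, 0.0084 and 0.0090. None of these 3 was called, with posterior probabilities at 48 h of 0.659, 0.935 and 0.173 in the authors' deposited table. Closest to Aoah were the transporter gene Slc47a1, the nephrin gene Nphs1 and Vwf, which encodes von Willebrand factor, at distances of 0.0949, 0.218 and 0.275. All 3 were called as fallen at both times by posterior probability. Among other genes within 0.1 of the log2 change of Aoah, 3 of 6 were called at 24 h and 5 of 8 at 48 h. At 48 h the authors' deposited table puts Slc47a1, Nphs1 and Vwf at 22.0%, 21.9% and 26.1% of 0 h levels, beside 21.9% for Aoah. That likeness follows from how these genes were picked.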

How the data were processed

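PolyA-selected RNA of 18 libraries was measured, and 32 chromatin immunoprecipitation and control libraries were not used here. Per the submitters' processing notes, STAR 2.4.1d, RSEM and DESeq 1.22.1 are among the tools and mm9 and mm10 the builds; the sources used here do not tie them to columns. The log2 fold changes, the posterior probabilities of differential expression and the adjusted p-values are the authors' own, as deposited, per the file headers. No model was fitted here and depth is unknown. The sign of deposited changes was turned (factor -1), so that values are the later time over 0 h. Rows without a posterior probability were left out of counts of calls. Of 12819 rows, 12689 were matched to RefSeq genes of GRCm38.p6 by symbol or unique older name, with Python 3.11.15 and pandas 2.3.3, for order, length and promoters. The counting of stretches was tested on simulated data.

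The members and lists were chosen with earlier results of these data known. Named were the members, 5 measured neighbours on each side, called members of each list or else its 2 largest changes at 48 h, and the 3 genes nearest to each member. Cdk13, the paralogs, Dock1, Rac1, Cd14, Prkcc, Rell2, genes of other stretches, and the comparisons with changes like those of Elmo1 and Aoah were chosen after values were seen. Alternatives were a stricter posterior probability (0.99), a least change of 1.5-fold or 2-fold, the second statistic, subtraction of the median, 10 neighbours and protein-coding rows.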

Additional observations from a re-analysis of the deposited data

How the results depend on the processing

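Of the 3 genes, Aoah kept its calls at both times and Sfrp4 its call at 48 h under every alternative run. Elmo1, at -0.57 at 48 h, was no longer called with a minimum change of 1.5-fold or of 2-fold, because the change itself is smaller, nor by the second statistic, for which the cause was not tested. Subtracting the median over all genes changed no direction. No neighbour was called under any alternative. At 24 h the single stretch of 3 called genes was lost, leaving 0, at a posterior probability of at least 0.99 and by the second statistic. At 48 h the 8 stretches became 7 with protein-coding rows alone and 6 at 0.99, in each of which the run remained, and 4 by the second statistic, which does not hold the run because Elmo1 does not pass. The other measured list genes number 85, and some of them lack a posterior probability or a value of the second statistic. Among those with a value, 1 was called as fallen at 24 h, and 0 with a minimum of 2-fold or by the second statistic. At 48 h 4 were called as fallen, against 2 at 0.99 and 1 with a minimum of 2-fold. Those called as risen at 48 h were 3, against 0 with a minimum of 2-fold and 1 by the second statistic. Over all genes 0.679% at 24 h and 3.97% at 48 h were called as fallen by posterior probability. In either direction 7.69% were called at 48 h, so nothing is read from these list counts. Some of these lists hold few measured genes. No paired analysis was possible because the table holds no values per library, and no replicate could be left out for the same reason.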

Other observations

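The posterior probabilities of the authors' deposited table are missing for some genes. The smallest change of any called gene was 0.52 on the log2 scale, or 1.43-fold, at both times, beside 0.57 in size for Elmo1 at 48 h. Of 358 genes with a change but without a posterior probability at 48 h, 356 were smaller than that, and of 156 at 24 h, 154 were. Of genes with a posterior probability, 10009 of 12408 at 48 h and 11712 of 12663 at 24 h were smaller than it too. The headers do not say why these values are missing.

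Among larger changes, 528 genes changed by at least 1 on the log2 scale at 48 h and have a posterior probability. For 31 genes of these it was below 1e-10, and 9 of the 31 passed the second statistic. None of Sfrp4, Elmo1 and Aoah is among the 31.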
